A study of Homo sapiens with 2 samples.

Results

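MX1, MX2, RSAD2, CMPK2, IFI6, IFI27, IFI35, IFI44, IFI44L and XAF1 are interferon-stimulated effector genes, and their transcripts were compared between 2 arrays of U251 cells, an established human glioma cell line. All probe sets whose gene symbol in the platform annotation is exactly one of these 10 names were taken, which gave 14 of the 54675 probe sets of the HG-U133_Plus_2 array. The genes were chosen because of their difference between these arrays, so the difference itself is given as a description and carries no test. One array was of cells transfected with a control and the other of cells transfected with miR-31, which the labels write as has-miR-31. Both cultures were grown in DMEM with serum, and the labels give neither the kind of construct, nor the time of harvest, nor whether the cells are 1 clone or a pool. Each group has 1 array, so miR-31 and any other difference between these cultures cannot be told apart.

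Interferons are secreted proteins that cells release on sensing viral nucleic acid. Type I interferon binds a receptor made of IFNAR1 and IFNAR2, whose kinases JAK1 and TYK2 activate a transcription factor complex containing IRF9. This complex binds interferon-stimulated response elements, paired GAAA-type repeats in the promoters of target genes, and the proteins made from those genes block steps of viral growth. MX1 and MX2 are dynamin-like GTPases that trap viral nucleoprotein and capsid structures. RSAD2 encodes viperin, a radical SAM enzyme that turns CTP into a chain-terminating nucleotide, and CMPK2 is a mitochondrial kinase that phosphorylates CMP and UMP. IFI6 and IFI27 are small hydrophobic membrane proteins of one family. IFI35 is a leucine zipper protein that binds NMI, IFI44 and IFI44L are related to each other, and XAF1 is an antagonist of the apoptosis inhibitor XIAP.

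The transfected microRNA and the response elements of the genes are shown first, because the elements are what the promoters share beyond the array values. All sequences are from RefSeq, on GRCh38.p14. The mature miR-31-5p, at chr9:21512158-21512178 on the minus strand, is shown with its seed, bases 2 to 8, in capitals.
hsa-miR-31-5p: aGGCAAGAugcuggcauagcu

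Promoter windows, from 250 bases before to 50 after an annotated start, were found for all of the genes except MX2, giving 17 windows for 9 genes. They were searched on both strands for GAAA followed by any 2 bases and a second GAAA, the core of the response element, and for TTCNNNGAA, the gamma-activated element bound by phosphorylated dimers downstream of interferon gamma. This 2-base gap element occurred in the windows of 6 of the 9 genes (66.7%), against 4.38% of the 27305 genes in the promoter table. TTCNNNGAA occurred in 3 of the 9 genes, MX1, IFI27 and IFI35, against 9.38% of all genes. A match is a description of these letters, not a binding site. One match per gene is printed for the 6 genes, in the direction of the gene, with the match in capitals and 8 bases on either side; matches that read TTTC are the same element on the other strand.
MX1: gcagaaatGAAACCGAAActgaattg
RSAD2: gtttcaacTTTCAGTTTCacatgtgg
IFI44L: ctagtgagGAAAAAGAAAgttagtgg
IFI44: acactgagTTTCAGTTTCctttctct
IFI6: agagagggGAAAATGAAActctgcag
IFI27: gtttcctgGAAAATGAAAcctatctc

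The MX1 match, at chr21:41420561-41420586, ended 20 bases after the first of its 3 annotated starts. The RSAD2 match, at chr2:6877624-6877649, ended 136 bases before the second of its 2 starts. IFI44L held the same 26 bases at 2 places, chr1:78620276-78620301 and chr1:78620367-78620392, with the match ending 155 and 64 bases before the start. In IFI44 the element lay at chr1:78649763-78649788 and ended 51 or 9 bases before the start, according to which of 2 starts is used. IFI6, on the minus strand, held 3 matches, ending 147, 106 and 84 bases before its start, and the printed one is at chr1:27672331-27672356. IFI27 held 2 matches, and the printed one, at chr14:94110633-94110658, ended 86 bases before its first start.

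The windows of CMPK2, IFI35 and XAF1 held no 2-base gap element, and on reading them a form with a gap of 1 base in place of 2, GAAANGAAA, was searched as well. This motif was therefore chosen after the windows had been read. It occurred in 6 of the 9 genes, against 3.87% of all genes, and in MX1 and IFI44 it overlapped a match of the first form. Either form was found in 9 of the 9 genes and in 7.83% of all genes. The matches in the 3 genes without the first form are printed in the direction of the gene.
CMPK2: cctccggcTTTCGTTTCcccgcaac
IFI35: atttcacgGAAATGAAAgtggaagc
XAF1: gcctgcaaGAAACGAAActcaaccg

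The CMPK2 match, at chr2:6865817-6865841, lies where its promoter window and that of RSAD2 overlap by 165 bases on opposite strands, so it counts for both genes. The first RSAD2 window held 4 matches of this form, of which 2 lie within the shared stretch. The IFI35 match is at chr17:43006760-43006784 and the XAF1 match at chr17:6756033-6756057.

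**Figure D1:**
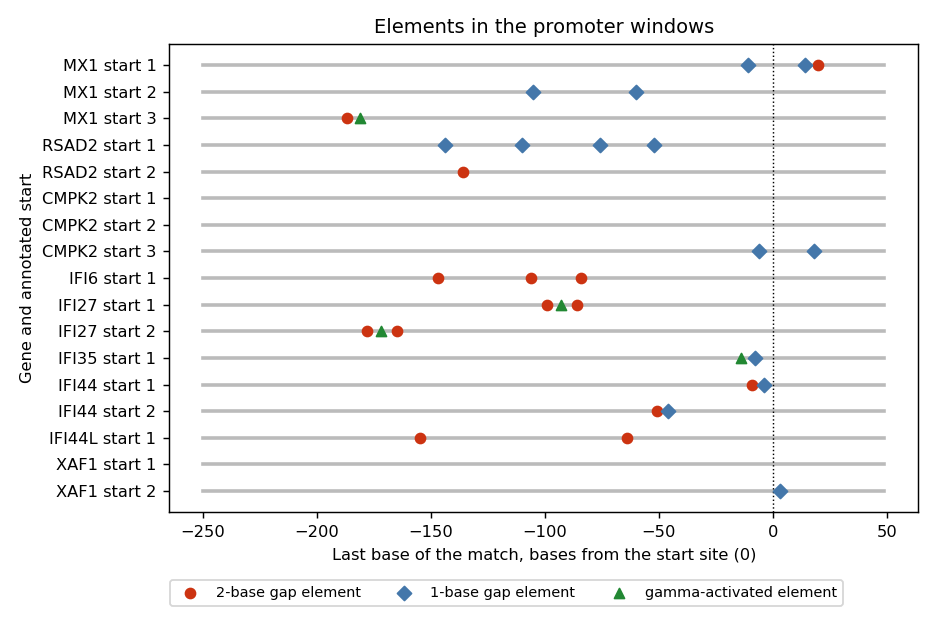
Positions of 3 sequence elements (symbols, at the last base of the match) in the promoter windows (grey lines) of 9 genes, by distance in bases from each annotated start, with starts numbered along the direction of the gene. IFI6 has 3 matches and IFI44L 2 of the 2-base gap element, while CMPK2, IFI35 and XAF1 have only the 1-base gap form, GAAANGAAA, or the gamma-activated element TTCNNNGAA.

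Expression was read as deposited linear intensities, 1 value per probe set and array, whose medians were 63.2 on the control and 67.6 on the miR-31 array. No detection calls were used, so dim values and background could not be told apart. The median level over all probe sets, 62.7, serves as a mark for dim values. Ratios are the difference of log2(intensity + 16) between the miR-31 and the control array, which understates the change of dim genes. Fold values below are on that scale. Probe sets of 1 gene disagreed with an SD of 0.33 per probe set on the log2 scale over 3142 genes with 2 probe sets past that mark, and of 0.68 over 1675 genes whose 2 probe sets were both dim in the control. These SDs leave out differences between cultures. Of 11 markers of glioma and astrocytes 9 passed the mark, none of them 2-fold different on its brightest probe set, and they moved in both directions. The intermediate filament genes GFAP and NES had 2007 and 3624 (log2 ratio 0.85) and 11039 and 5877 (-0.91) in the control and miR-31 arrays. Another probe set past the mark gave 1.03 for GFAP (220 and 464), which is past 2-fold, and another gave 0.03 for NES (872 and 889). ALDH1L1, an astrocyte enzyme, had 85.5 and 154.6 (0.75) and the transcription factor SOX9 had 4170 and 2826 (-0.56), while VIM (29992 and 34112) and SOX2 (13333 and 17486) were among the brightest. S100B, an astrocyte calcium-binding protein, had 38.1 and 50.8 and AQP4, the astrocyte water channel, 2.08 and 31.3, both among the dim values.

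Of the 14 probe sets, 13 had at least 2 times the control level with miR-31 and 1 was lower, by less than 2-fold. Over all 41091 probe sets with 1 gene symbol, 6.03% were at least 2-fold higher and 5.06% at least 2-fold lower. The median log2 ratio was 2.89 over the 14 probe sets and 0.02 over all. At 4-fold the numbers were 10 of the 14 probe sets and 0.402% of all. Because the genes were picked on this contrast, these shares are set side by side and nothing is read from them. In the control, 7 of the 14 probe sets were below the mark of 62.7 and 7 above it, and in the miR-31 array 1 was below it.

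**Figure D2:**
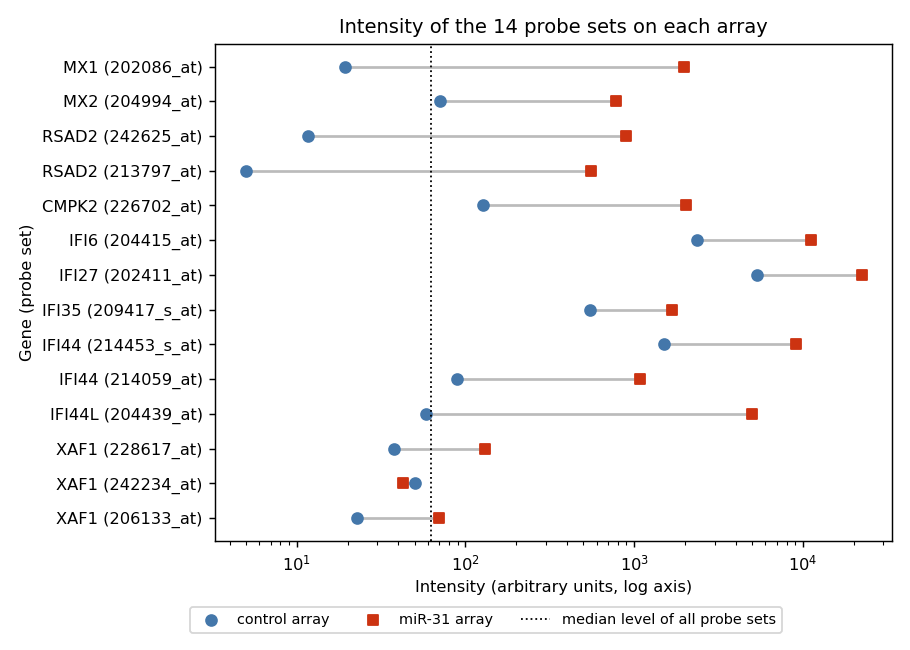
Deposited intensity (log axis, arbitrary units) of each of the 14 probe sets on the control array (circles) and the miR-31 array (squares), with the median level of all probe sets as a dotted line. In 13 of the 14 probe sets the miR-31 array is the higher, and the exception is a probe set of XAF1 with 49.98 on the control array and 42.4 with miR-31.

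MX1 read 19.4 on the control array and 1977 with miR-31, on its 1 probe set. The control value is near the dim end of the array, at percentile 27.3 of all probe sets, and the miR-31 value is at percentile 91.1. The log2 ratio was 5.82, or 56.3-fold, and it ran from 4.61 with a pseudocount of 64 to 6.60 with a pseudocount of 1. MX2 had 70.9 on the control array and 777 with miR-31, a log2 ratio of 3.19, or 9.12-fold. The control value of MX2 was just above the mark for dim values and that of MX1 below it, and the 2 genes lie next to each other on chromosome 21 among the genes compared.

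RSAD2 was read by 2 probe sets. The brighter had 11.6 on the control array and 892 with miR-31 (log2 ratio 5.04), and the other had 5.001 and 557 (4.77). Both control values lie near the dim end of the array, at percentiles 20.5 and 10.4, and both miR-31 values are far above the mark. The 2 ratios differ by 0.27, less than 0.96, the SD that dim pairs give for a difference of 2 ratios. With a pseudocount of 64 they were 3.66 and 3.17, and with a pseudocount of 1 they were 6.15 and 6.54, so the size of the RSAD2 ratio is set largely by how its control values are treated. CMPK2, which shares a start region with RSAD2, had 127 on the control array and 2019 with miR-31. Its log2 ratio of 3.83, or 14.2-fold, starts from a control value above the mark and moved less, between 3.45 and 3.98, over the same pseudocounts.

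IFI44L had 58.3 on the control array and 4983 with miR-31. The log2 ratio was 6.07, or 67.3-fold, the highest of the 10 genes on this scale. It was 5.37 with a pseudocount of 64, again the highest, and 6.39 with a pseudocount of 1, below MX1 (6.60) and the dimmer RSAD2 probe set (6.54). Its neighbour and relative IFI44 was already above the mark in the control on both probe sets. The brighter IFI44 probe set had 1499.5 and 9119.7 (log2 ratio 2.59), and the other had 89.4 and 1079 (3.38). The 2 differ by 0.79, more than 0.47, the SD that the pairs past the mark give for a difference of 2 ratios, and the brighter one is of the _s_at type, whose probes can match more than 1 transcript.

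IFI6 and IFI27 were bright in the control. IFI6 had 2369 on the control array and 11214 with miR-31, a log2 ratio of 2.24, or 4.71-fold. IFI27 had 5324 and 22303, a log2 ratio of 2.06, or 4.18-fold. Their ratios were nearly free of the pseudocount, with 2.21 and 2.05 at a pseudocount of 64, and their control values were at percentiles 92.4 and 96.5 of the array. IFI35 had 549 on the control array and 1669 with miR-31, a log2 ratio of 1.58, or 2.98-fold, on 1 _s_at probe set.

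XAF1 was read by 3 dim probe sets, and they disagreed in direction. The brightest of its 3 probe sets by mean level had 37.6 on the control array and 131 with miR-31 (log2 ratio 1.46). The next by mean level had 49.98, the highest control value of the 3, and 42.4 (-0.18). The dimmest had 22.8 and 69.9 (1.15). All control values and 1 of the miR-31 values were below the mark. The highest and the lowest ratio differ by 1.64, against the SD of 0.96 for a difference of dim pairs. With a pseudocount of 64 none of the 3 reached 2-fold, the highest having 0.94.

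Set in order of ratio, with the brightest probe set of each gene, the genes run IFI44L, MX1, RSAD2, CMPK2, MX2, IFI44, IFI6, IFI27, IFI35 and XAF1. The gap between IFI44L and MX1 is 0.26, that between IFI6 and IFI27 0.17 and that between IFI35 and XAF1 0.12. These are smaller than the SD of 0.47 for a difference of 2 ratios, as is the gap of 0.36 between IFI44 and IFI6. MX1 and RSAD2, both dim in the control, differ by 0.78, less than the SD of 0.96 for dim pairs. MX2 and IFI44 differ by 0.60, but by 0.09 with a pseudocount of 64. The dimmer IFI44 probe set, with 3.38, lies above MX2, with 3.19, so the order of these pairs is not settled. The gap between RSAD2 and CMPK2 is 1.21, but it is 0.21 with a pseudocount of 64 and 2.16 with a pseudocount of 1, so its size cannot be read from a control value as dim as that of RSAD2. With a pseudocount of 1 the first 2 genes and the last 2 trade places. IFI44L, MX1 and RSAD2, the first 3 in the order, were below the mark in the control.

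**Figure D3:**
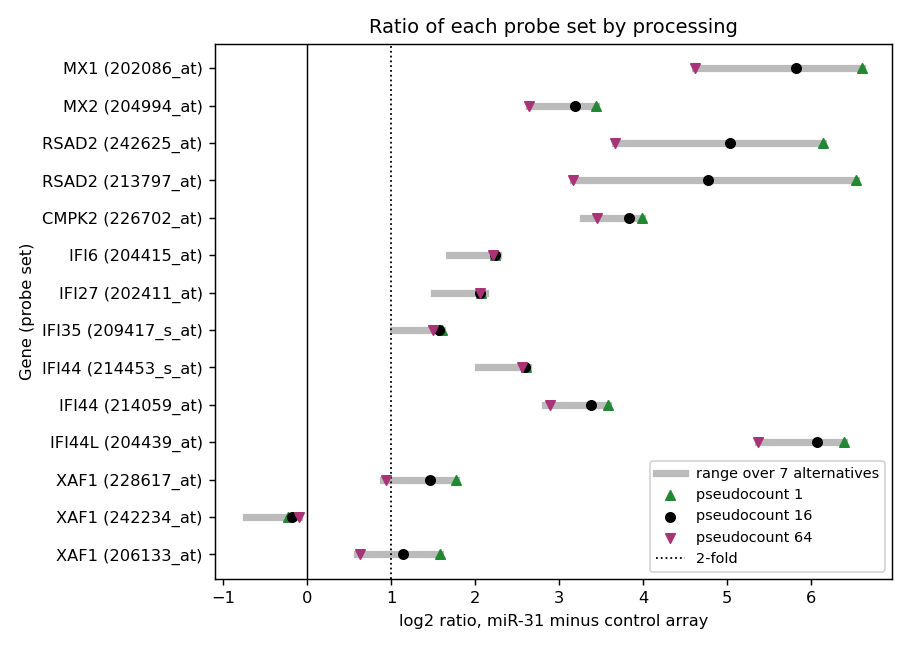
The log2 ratio of each probe set with pseudocounts of 1, 16 and 64 (symbols) and the range over 7 alternatives of pseudocount and scaling (grey bars), with 2-fold as a dotted line. The bars of MX1 and RSAD2 are wide, from 3.17 to 6.54 for the dimmer RSAD2 probe set, and those of IFI6 and IFI27 do not reach below 1.51.

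Since dim probe sets scatter more, each ratio was set beside those of all probe sets at a like control level, in 8 bins of equal size. Probe sets with a control value below the mark were at least 2-fold higher in 10.1% of cases, and those above it in 2.64%. In the bin that holds MX1 and the brighter RSAD2 probe set, with control values from 6.70 to 19.8, the 99th percentile of the log2 ratio was 1.97. In the bin of IFI6 and IFI27, with control values from 1612 upwards, it was 0.89, and 0.681% of probe sets were at least 2-fold higher. Of the 14 probe sets 11 lay above the 99th percentile of their bin, and the 3 that did not were those of XAF1, whose bins had 99th percentiles of 1.59 and 1.49. IFI35, with 1.58 against 1.34, was nearest above it. Because the genes were picked on this contrast, their places in the bins are a description and nothing is read from them.

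**Figure D4:**
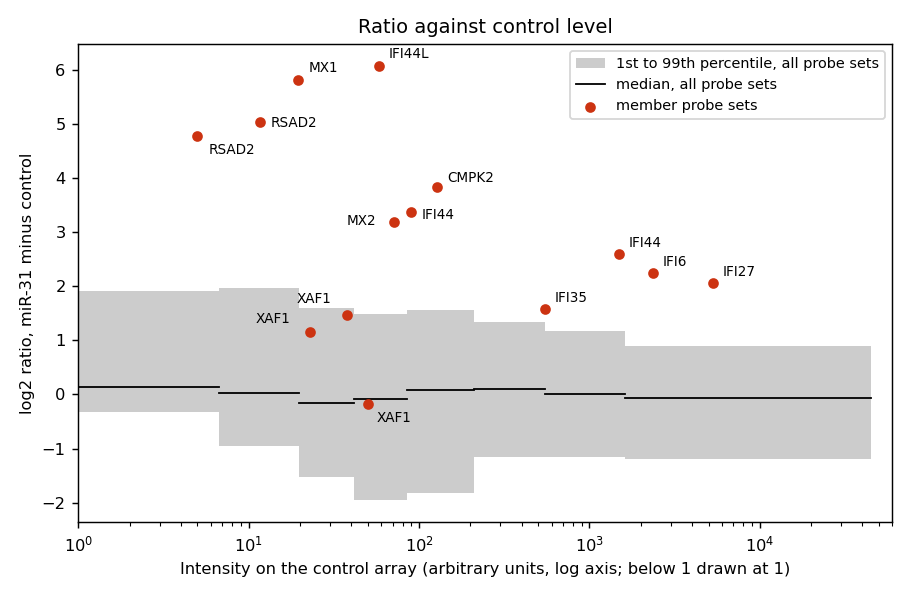
The log2 ratio of the 14 probe sets (points) against control intensity (log axis), over the 1st to 99th percentile of all 41091 named probe sets in 8 bins of control level (grey) and their medians (lines). The XAF1 points fall inside the grey range and the others above it, with the smallest margin for IFI35.

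The other genes of the pathway were taken from a list of known interferon-stimulated genes, which was written with earlier results of these data known, and of which 42 had a probe set and 38 passed a level filter at the mark of 62.7 for the mean of both arrays. All 38 were higher with miR-31, 35 by at least 2-fold, with a median log2 ratio of 1.89, against shares of 3.74% at least 2-fold higher and 1.58% at least 2-fold lower, and a median of 0.03, over all 11787 genes that passed. This filter reads both arrays, so a rise helps a gene to pass: OAS2, with 37.5 in the control, passed through its miR-31 value of 637, while IRF7, with 42.7 and then 16.7, did not pass. Without a filter, 40 of the 42 were higher and 2 lower, 36 by at least 2-fold (5.99% of all genes), with a median of 1.85. With the filter on the control array alone, chosen after the data were seen, 35 of 38 were at least 2-fold higher (2.79% of all genes) and the median was again 1.85. Each of the 10 genes above passed the filter on the mean of both arrays on at least 1 probe set, although MX1, RSAD2, IFI44L and XAF1 passed only through the miR-31 array. The highest ratios on the list were those of OAS1 (3.87) and OAS2 (3.61), which make the activator of RNase L, IFITM1 (3.51), a membrane protein that blocks virus entry, and ISG15 (3.49), a ubiquitin-like modifier. IFI44L, MX1 and RSAD2 had higher ratios than any of them. The lowest were those of IRF1 (0.75), GBP1 (0.76), IFI16 (0.78) and ISG20 (1.09). These values rest on the brightest probe set. Other probe sets past the mark gave 2.73 for ISG20 (17.2 and 205), 1.30 and 1.15 for GBP1 and up to 1.45 for IFI16. Those of OAS2 ran from 1.04 to 3.61. IRF1 and GBP1 are well known as targets of interferon gamma, but whether its targets as a set moved less was not tested. Of the 4 genes below the filter, DHX58, a regulator of RNA sensing, had 5.35 and 126 (2.73). IRF7 had 42.7 and 16.7, EPSTI1 8.59 and 14.2 on the brighter of 2 probe sets, and LAMP3 18.6 and 9.45, all dim on both arrays. Promoter windows were found for 34 of the 42 genes, and 23 of these (67.6%) held the 2-base gap element.

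Transcripts of those interferons that could be read were dim on both arrays. Of 13 interferon genes listed, 9 had a probe set, and none of these passed the level filter. The only interferon alpha genes among them were IFNA1 and IFNA2. IFNB1, interferon beta, had 1.88 in both arrays, and the 9 genes ran from 1.42 to 50.6 in the control and from 0.827 to 46.7 in the miR-31 array. IFNE had 1.42 and 37.8 and IFNW1 had 50.6 and 5.19, and these were the only members past 2-fold, in opposite directions. Of the 9 receptor and kinase genes compared none reached 2-fold, and the median log2 ratio was 0.22. IFNLR1, the receptor chain for interferon lambda, had 0.84, IFNAR2 0.31, IL10RB 0.27 and JAK1 0.25. The 4 probe sets of IFNAR1 lay between -0.84 and 0.22 and the 3 of IFNAR2 between -0.63 and 0.31.

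Relatives of the 10 genes that are not known as interferon targets served as a comparison within families. Of 11 such genes, 1 was at least 2-fold higher and none lower, with a median of 0.10. That gene was IFI27L1, a relative of IFI27, with 429 on the control array and 941 with miR-31 (1.11). IFI27L2, of the same family, had 1123 and 1972 (0.80), on a probe set of the _x_at type, which can share probes with similar transcripts. The dynamins and mitochondrial fusion GTPases related to MX1 and MX2 lay between 0.01 and 0.34, DNM1 at 0.34 being the highest, although another probe set of DNM2 had -1.28. CMPK1, the cytosolic relative of CMPK2, had 0.02 and DTYMK, thymidylate kinase, -0.56. Among 10 partners of these proteins, NMI, which binds IFI35 and is itself an interferon-stimulated gene, had 887 and 2419 (1.43) and was the only one past 2-fold. XIAP, the target of XAF1, had 7227 and 7597 (0.07). BIRC2, another inhibitor of apoptosis, had -0.57, TRAF6, a signalling ligase recruited by viperin, -0.50, and HADHB, a mitochondrial enzyme, 0.28. Another TRAF6 probe set past the mark gave 0.25, in the opposite direction. The median of the partners is -0.05, and those of the receptors and of the relatives fall under 0 if the poly-A spike-ins are used for centring, so no direction is given to them.

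Genes on either side of the 10 on the chromosome were compared by their order in the RefSeq table. On each side the 2 nearest that passed the level filter were taken. Genes that did not pass were skipped and distances in bases are not given here, so those taken need not be adjacent. Of 28 such genes that are not among the 10, 1 was at least 2-fold higher and none lower, and the median log2 ratio was 0.08. Over all 11787 genes that passed the filter, 3.74% were at least 2-fold higher and 1.58% at least 2-fold lower. The count among the neighbours therefore does not set them apart from other genes, nor do those of the shorter lists of receptors, relatives and partners. The neighbour past 2-fold was again IFI27L1, which with IFI27L2 flanks IFI27 on chromosome 14. The neighbours of MX1 and MX2 on chromosome 21 were BACE2 (0.27) and LINC00479 (0.18), followed by PRDM15 (-0.48) and LCA5L (-0.20). Around RSAD2 and CMPK2 on chromosome 2 lay RPS7 (-0.003) and RNF144A (-0.63), and further out RNASEH1-DT (0.15) and ID2-AS1 (-0.14). Around IFI44L and IFI44 on chromosome 1 lay PTGFR (0.38) and ADGRL2 (-0.17), and further out DNAJB4 (0.28) and TTLL7 (0.35). The ratios past 3 on the log2 scale at these places were thus those of IFI44L, MX1, MX2, RSAD2 and CMPK2, and of the dimmer IFI44 probe set.

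**Figure D5:**
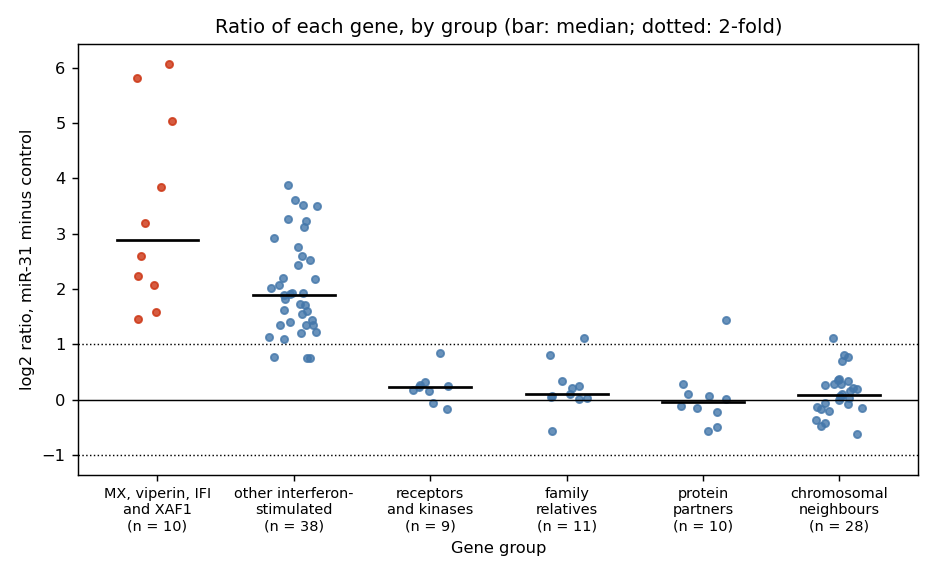
The log2 ratio of each gene (points, 1 probe set per gene past the level filter) in 6 groups, with the group median as a bar and 2-fold as dotted lines. The medians of the MX, viperin, IFI and XAF1 genes (2.89) and of the other interferon-stimulated genes (1.89) lie above those of the receptors, relatives, partners and neighbours, at 0.22, 0.10, -0.05 and 0.08. The first group was picked on this contrast and the second list was written with earlier results known, so their places are a description. MX1, RSAD2, IFI44L and XAF1 passed the level filter only through the miR-31 array.

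Markers of immune cells, which could bring interferon or interferon-stimulated transcripts into a culture, were mostly below the mark. Of 11 microglia and macrophage markers with a probe set, 2 passed the level filter, CSF1R (75.9 and 100.9) and ITGAM (76.2 and 61.4), and the summed intensity of the 11 was 349 on the control array and 414 with miR-31. CD14, a monocyte receptor, had 4.45 and 53.0 and was the only one of them at least 2-fold higher. Of 7 lymphoid markers 1 passed, the B cell receptor component CD79A (120.9 and 179.0, log2 ratio 0.51), and the sums were 274 and 374. The T cell marker CD3E had 5.45 and 46.3 (1.54) and NKG7, of cytotoxic lymphocytes, 3.60 and 23.995 (1.03), so these 2 were past 2-fold while below the mark on both arrays. Of 4 markers of plasmacytoid dendritic cells 1 passed, TCL1A (51.4 and 76.2), with sums of 138 and 129, and LILRA4 was lower, with 45.7 and 11.3 (-1.18). None of these markers was listed at 0, and PTPRC, the pan-leukocyte antigen CD45, had 30.1 and 17.0. Their part in the result was not tested.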

How the data were processed

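The deposited table holds linear intensity values of 2 HG-U133_Plus_2 arrays, hybridised with biotin-labelled cRNA per the labels. The software that made them was not given in the sources used here. Both deposited arrays share a scale: trimming 2 percent of probe sets at each end left a mean of 500.1 on either array. Precision is limited by the number of arrays, 1 per group, so no p-value was computed.

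Gene symbols came from the platform annotation supplied with the data: 41091 probe sets had 1 symbol and were used, while 1801 had several, 11777 are unnamed here and 6 are array controls for ACTB and GAPDH, left out. Ratios were taken on the log2(intensity + 16) scale. For gene-level values, probe sets with a mean level of at least 62.7, the median over all probe sets, were kept, and the brightest represented its gene. The level is the mean on that log2 scale.

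The members and lists were chosen with earlier results of these data known. Besides the 10 genes, the rule named the 4 highest and 4 lowest other interferon-stimulated genes, of the lists of interferons, receptors, relatives and partners up to 4 genes by absolute ratio, the 6 genes nearest the members' median and the neighbours. The marker genes of glial and immune cells, IFNE, IFNW1, CMPK1, XIAP and the genes below the filter were named after their values were seen. The calculation was tested on simulated data. Alternatives were other pseudocounts, scalings, level filters and probe set choices. Promoter windows and miR-31 came from RefSeq tables on GRCh38.p14; the array table names no genome build. Calculations ran in Python 3.11.15 with pandas 2.3.3 and numpy 2.4.6, trend removal with statsmodels 0.14.6 and plots with matplotlib 3.10.9.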

Additional observations from a re-analysis of the deposited data

How the results depend on the processing

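No paired analysis was possible because there is only 1 array of each kind, which also means that none could be left out. Of the 14 probe sets, 13 were at least 2-fold higher with a pseudocount of 1, quantile normalization, median centring or removal of a level trend (loess, span 0.3), 12 when centred on the hybridisation controls, and 11 with a pseudocount of 64 or when centred on the poly-A controls; the probe sets lost in the last cases are those of XAF1. Over all probe sets with 1 symbol, the share at least 2-fold higher was 12.1% with a pseudocount of 1 and 1.29% with one of 64. It was 5.55% with quantile normalization, 5.67% with median centring and 5.72% with loess. Centring on the hybridisation controls gave 3.71% and on the poly-A controls 1.43%. None of the ratios of the 14 probe sets changed sign over these 7 alternatives. The 24 poly-A controls had a median log2 ratio of 0.55 and the 18 hybridisation controls one of 0.19, amounts by which such centring lowers every ratio. The median ratio of the 14 probe sets, 2.89, was 2.34 when centred on the poly-A controls, and 3.28 over the 12 that passed the level filter and over another 12, without the _s_at type. The median of the other interferon-stimulated genes, 1.89, was 1.34 when centred on the poly-A controls and otherwise lay between 1.70 and 1.93. The number of the 10 genes at least 2-fold higher was 9 or 10 with every other pseudocount, scaling, level filter on both arrays and probe set choice. It was 10 at 1.5-fold and 8 at a threshold of 4-fold. With a filter on the control array alone, chosen after seeing the data, it was 6 of the 6 that passed. Over all genes, 3.74% were at least 2-fold higher with the main filter, 5.99% without a filter and 2.79% with the filter on the control array alone. Shares over all genes at the other settings are not given here. The size of the ratios of MX1, RSAD2 and IFI44L depended on how their dim control values were treated, while their sign stayed the same. Whether those control values differ from background was not tested.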

Other observations

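The 6 genes outside the 10 whose ratio lies nearest to the median of the 10, 2.89, were DDX60 (2.92), UNC93B1 (2.96), KRT15 (2.82), SCNN1A (3.01), HERC6 (2.76) and ELF3 (2.71), a likeness measured over 2 arrays. DDX60, a helicase, and HERC6, a ligase, are interferon-stimulated genes. KRT15, a keratin, had 123 on the control array and 968 with miR-31 on its 1 probe set. SCNN1A, a sodium channel subunit, had 28.4 and 342 on its brightest probe set, and its 3 probe sets ran from -0.07 to 3.01. UNC93B1, which carries nucleic acid receptors to endosomes, had 12.3 and 204, with 3 probe sets between 0.98 and 2.96. The 3 probe sets of ELF3, an epithelial transcription factor, ran from 0.34 to 2.71 and the 2 of HERC6 from -0.14 to 2.76. The probe sets of SCNN1A, UNC93B1, ELF3 and HERC6 thus disagreed. Among the 10 genes, those of XAF1 disagreed as well, from -0.18 to 1.46, while both probe sets of RSAD2 and of IFI44 lay above 2.5. The control values of SCNN1A, UNC93B1 and ELF3 (20.9) were below the mark, so these genes passed the level filter only through the miR-31 array.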
